A study of Mus musculus with 10 samples.

Results

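Histones are the proteins around which nuclear DNA is wound, and 33 of the 19752 genes measured one at a time in this mouse dentate gyrus series carried a histone symbol. They were taken by symbol alone (H1f, H2ac, H2bc, H3c, H4c, H2az or H3f followed by a number, or the older Hist names) among probe sets annotated to a single gene, with the probe set of highest mean kept where a gene had several. No measured value of age entered that choice. Of the 33 genes, 24 are replication-dependent, 6 are replacement histones (H1f7, H1f8, H1f10, H2az1, H2az2 and H3f3a) and 3 are germ-cell histones of the clusters (H1f6, H2ac1 and H2bc1). A further 32 probe sets named a histone gene together with other genes and are described apart.

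Total RNA was hybridised to whole-transcript arrays. The 10 arrays came from mice of a strain the labels write as C56BL/6J, with no treatment given, at 4, 6, 8, 10 and 12 weeks of age, with 2 arrays at each age and no other genotype. The dentate gyrus, the part of the hippocampus where granule neurons go on being born after birth, was cut out on both sides with a needle tip, so every array is a mixture of cell types. Nothing in the labels ties the 2 arrays of an age to separate mice or separate pools. The p-values therefore rest on the variation among these arrays, which may be technical.

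Arrays resembled each other, with correlations across genes of 0.994 to 0.998. The labels give the sex as female, yet Xist lay at 5.41 to 6.02 and Y-chromosome genes (Eif2s3y, Kdm5d, Uty) at 8.59 to 9.34 log2 units on all 10 arrays. Replicate 1 at 6 weeks had a level of 13.77 for Ttr, a choroid plexus gene, against 8.87 to 10.15 elsewhere, and replicate 1 at 8 weeks had the narrowest distribution (SD 2.12). All 10 listed markers of mature granule cells lay above the dim reference, and their mean lay between 11.49 and 11.65 log2 units. Single markers went both ways over age: Tdo2 fell (−0.44, limma adjusted p = 0.032), though not in 7 of the 10 fits with 1 array left out, and C1ql2 had 0.19 (adjusted p = 0.24). That dim reference, 7.01 log2 units, is the 95th percentile of 1203 odorant, pheromone and trace amine receptor genes, averaged over arrays.

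Replication-dependent histones supply new chromatin during DNA synthesis. Their genes stand in clusters, most without introns. Their mRNAs typically end in a stem-loop in place of a poly(A) tail, are bound by Slbp and are broken down when synthesis stops. Some members, H2bc4, H2bc21 and H2bc22 among them, have longer RefSeq spans than most, and transcript forms were not examined. Replacement histones are made throughout the cell cycle and in neurons that no longer divide, from ordinary polyadenylated mRNAs. H2A, H2B, H3 and H4 form the core of the nucleosome, and H1 binds the linker DNA where it enters and leaves. In the dentate gyrus, cells in S phase are progenitors and glial precursors, a small share of a tissue made mostly of granule neurons.

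Promoter sequences show how the classes differ at the DNA level, and 5 are printed for genes that the results below turn on. H1f1, H2bc14 and H2bc3 are replication-dependent genes with values in every array, H3c2 is one of the 12 genes named by a group of H3 probe sets, and H2az1 is a replacement gene. Each is the 130 bases before the RefSeq gene start on the plus strand of GRCm38.p6, 5′ to 3′. Capitals mark the TATA box (TATAAA), the CCAAT box (CCAAT) and the octamer (ATTTGCAT), read on either strand.
H1f1 (chr13:23763538-23763667): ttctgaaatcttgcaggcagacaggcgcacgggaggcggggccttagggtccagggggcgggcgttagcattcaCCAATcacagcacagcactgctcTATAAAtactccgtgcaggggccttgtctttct
H2bc14 (chr13:21721914-21722043): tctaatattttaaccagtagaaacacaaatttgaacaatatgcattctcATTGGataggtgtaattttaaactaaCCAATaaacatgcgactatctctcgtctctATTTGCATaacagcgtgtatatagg
H2bc3 (chr13:23746604-23746733): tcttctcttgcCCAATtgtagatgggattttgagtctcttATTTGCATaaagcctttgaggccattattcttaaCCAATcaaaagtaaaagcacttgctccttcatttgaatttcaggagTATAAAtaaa
H3c2 (chr13:23752215-23752344): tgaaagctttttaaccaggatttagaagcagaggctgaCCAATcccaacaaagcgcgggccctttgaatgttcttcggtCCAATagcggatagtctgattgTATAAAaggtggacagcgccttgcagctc
H2az1 (chr3:137864357-137864486): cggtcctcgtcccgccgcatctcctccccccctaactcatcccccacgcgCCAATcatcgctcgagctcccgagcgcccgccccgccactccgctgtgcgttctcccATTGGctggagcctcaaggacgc

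The TATA box began 33 bases before the start in H1f1, 29 in H3c2 and 10 in H2bc3, and its letters were not in the printed windows of H2bc14 and H2az1. The CCAAT box, bound by NF-Y, stood in all 5 windows, in H2bc14 and H2az1 on both strands. The octamer, bound by Oct1 and long known from H2B promoters, stood 25 bases before the start in H2bc14 and 90 in H2bc3. Each match is a description of letters, and binding was not measured.

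Over the 250 bases before the start, on both strands, promoters were at hand for 68 of the 73 protein-coding histone genes of the symbol rule. CCAAT occurred in 45 of 55 replication-dependent promoters (81.8%) and in 6 of 10 replacement promoters, against 33.8% of all 32851 promoters searched the same way. By family it occurred in 16 of 16 H2A, 13 of 13 H2B, 5 of 5 H1, 8 of 10 H3 and 3 of 11 H4 promoters. TATAAA occurred in 26 of 55 (47.3%) and in 1 of 10, against 12.4%. The octamer occurred in 6 of 13 H2B and 5 of 16 H2A promoters, in 0 of the H1, H3 and H4 promoters of the replication-dependent class, and in 1.6% of all promoters. AAACACA, the H1 box, occurred in 4 of 5 replication-dependent H1 promoters against 6.25% of all. It also occurred in 1 of 16 H2A and 1 of 13 H2B promoters. Replacement promoters held the H1 box in 1 of 10 and the octamer in 1 of 10. Of the 3 germ-cell promoters, all held CCAAT and the H1 box, and 2 each held TATAAA and the octamer. No motif searched contains another. H2A and H2B genes often stand head to head, so some of these windows may share bases.

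Ages were compared first by the trend, the fitted change in log2 units over the 8 weeks from 4 to 12 weeks, with p-values adjusted over all 19752 genes and a threshold of 0.05. None of the 33 histone genes passed (limma, Benjamini-Hochberg), against 162 of all genes (0.82%). The smallest adjusted p was 0.18. At an unadjusted p under 0.05 there were 5 histone genes, 4 with a lower and 1 with a higher value at older age. That is 15.2% of them against 11.7% of all genes, and 7.28% of all genes in the lower direction alone. Above the dim reference it was 4 of 27 histone genes (14.8%) against 13.5% of all such genes. The 95% intervals of the 33 changes together spanned −0.58 to 0.57, so changes of nearly these sizes were not excluded for the least precise genes.

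The middle of the replication-dependent class lay slightly below that of all genes. Its median change was −0.07, with 17 of 24 genes negative, beside a median of 0.00 and 48.8% negative over all genes. Above the dim reference the median was −0.09 with 15 of 20 genes negative, beside −0.01 and 54.1% negative over all such genes. The 6 replacement genes had a median of −0.02 with 3 negative, and the 3 germ-cell genes a median of −0.06 with 2 negative. Positive values of the replacement class included 0.08 for H1f7 and 0.15 for the dim H1f8. These genes are known from spermatids and oocytes and count as replacement histones by symbol alone. Of the rest, H3f3a, H1f10 and H2az2 had −0.16, −0.11 and −0.05, and H2az1 had 0.01. Within the replication-dependent class the median was −0.11 for 4 H1 genes, −0.19 for 3 H2A genes, −0.10 for 8 H2B genes, of which 7 were negative, −0.04 for 3 H3 genes and 0.00 for 6 H4 genes. The 20 genes on chromosome 13 had a median of −0.09 and the 4 on chromosome 3 a median of −0.02. In bulk tissue such as this, fewer cells of a type and less RNA per cell cannot be told apart.

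**Figure D1:**
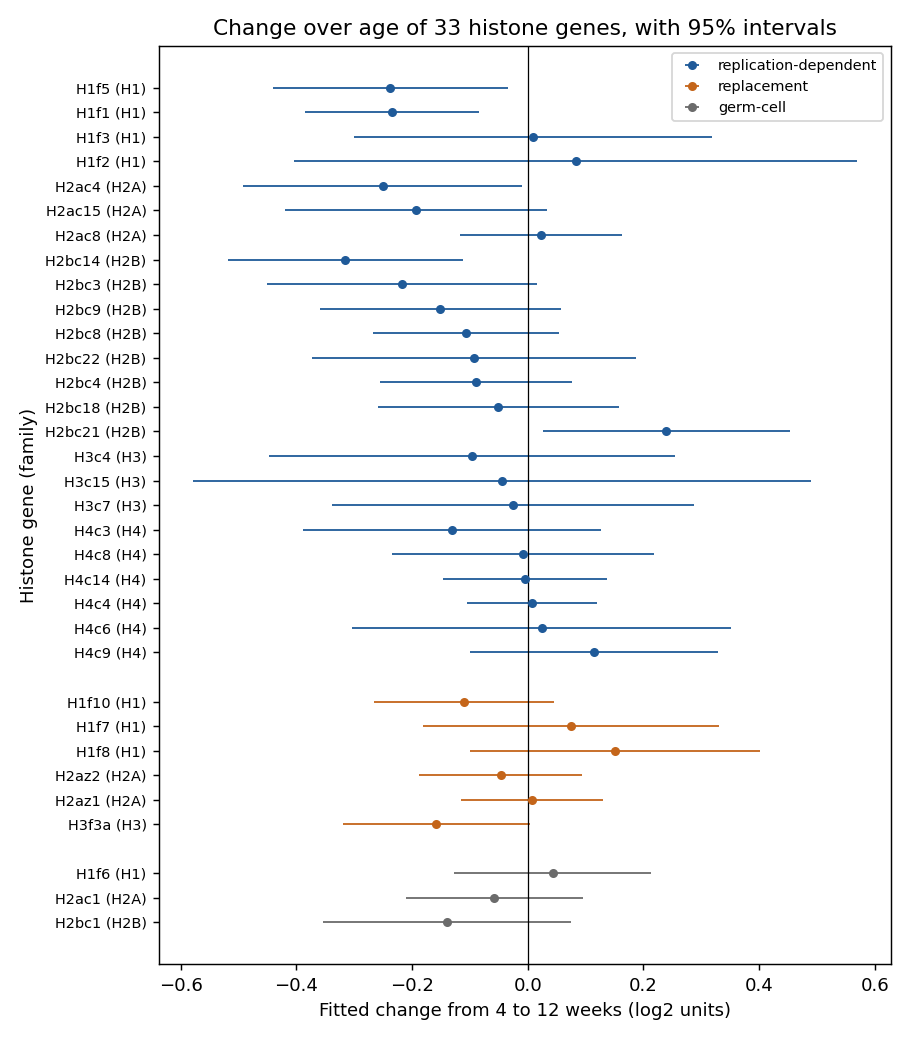
Fitted change from 4 to 12 weeks in log2 units for each of the 33 histone genes (points) with its 95% interval (lines), by class and family. The intervals of 5 replication-dependent genes lie clear of 0, those of the 6 replacement genes include it, and no gene passed the adjusted threshold.

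Single histone genes were named by size of p, by class and by signal within a family, which also depends on the probes. Linker histones come first. H1f1 (chr13:23763668-23764412), a replication-dependent H1 subtype, read 9.07 and 9.16 at 4 weeks, 9.00 and 8.96 at 6 weeks, 9.00 and 8.85 at 8 weeks, 8.79 and 8.88 at 10 weeks and 8.88 and 8.90 at 12 weeks. Both 4-week arrays stood above the other 8, and the 12-week arrays did not overlap them. The trend was −0.23 ± 0.07 (SE; 95% interval −0.39 to −0.08; unadjusted p = 0.0054, limma adjusted p = 0.18).

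H1f5 (chr13:21779832-21780625), another H1 subtype of the cluster, read 8.94 and 8.95 at 4 weeks, 8.70 and 8.64 at 6 weeks, 8.71 and 8.58 at 8 weeks, 8.74 and 8.69 at 10 weeks and 8.73 and 8.52 at 12 weeks. Here too the 4-week arrays were highest, and the later ages overlapped one another. The trend was −0.24 ± 0.09 (limma adjusted p = 0.33), and the difference of 12 from 4 weeks was −0.32 ± 0.08 (adjusted p = 0.21).

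Among replacement linker histones, H1f10, also called H1x (chr6:87980421-87981482), read 11.17 and 11.29 at 4 weeks, 11.19 and 11.24 at 6 weeks, 11.14 and 11.22 at 8 weeks, 11.03 and 11.03 at 10 weeks and 11.19 and 11.17 at 12 weeks. The 10-week pair lay lowest, and the 12-week pair overlapped the 4-week pair (trend −0.11 ± 0.07, 95% interval −0.27 to 0.05). H1f7 (chr15:98255982-98257307), known from spermatids, read 7.59 and 7.81 at 4 weeks, 7.77 and 7.80 at 6 weeks, 8.08 and 7.72 at 8 weeks, 7.73 and 7.98 at 10 weeks and 7.83 and 7.69 at 12 weeks. H1f8 (chr6:115944931-115950242), the oocyte linker histone, read 6.24 and 6.07, 6.14 and 6.08, 6.48 and 6.12, 6.45 and 6.30, and 6.28 and 6.14 in the same order of ages, all under the dim reference. The arrays of neighbouring ages overlapped in both genes, except that the 12-week pair of H1f8 lay below its 10-week pair, and the trends were 0.08 ± 0.12 for H1f7 and 0.15 ± 0.12 for H1f8.

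Of the core histones, H2A came next. H2ac15 (chr13:21753377-21753912), a replication-dependent H2A gene, read 10.90 and 10.71 at 4 weeks, 10.74 and 10.54 at 6 weeks, 10.78 and 10.59 at 8 weeks, 10.55 and 10.64 at 10 weeks and 10.75 and 10.42 at 12 weeks. Its 12-week arrays lay on either side of the lower 4-week array, so the ages overlapped (trend −0.19 ± 0.10, limma adjusted p = 0.53; −0.11 without replicate 2 and −0.30 without replicate 1 at 12 weeks). H2ac4 (chr13:23751088-23751592) read 6.23 and 6.29 at 4 weeks, 6.28 and 6.25 at 6 weeks, 6.18 and 6.09 at 8 weeks, 6.20 and 6.12 at 10 weeks and 6.25 and 5.75 at 12 weeks, under the dim reference throughout. One array, replicate 2 at 12 weeks, stood apart below the other 9. With it the trend was −0.25 ± 0.11 (adjusted p = 0.40), without it −0.08, and without replicate 1 at 12 weeks −0.37.

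H2A.Z, the replacement H2A variant found at gene promoters, is encoded by H2az1 and H2az2. H2az1 (chr3:137864487-137866922) read 12.01 and 12.01 at 4 weeks, 12.04 and 12.03 at 6 weeks, 11.95 and 12.07 at 8 weeks, 11.97 and 12.02 at 10 weeks and 12.09 and 11.98 at 12 weeks. H2az2 (chr11:6427226-6444511) read 10.94 and 10.87, 11.01 and 11.01, 11.02 and 10.95, 10.84 and 10.96, and 10.87 and 10.94 in the same order. Neither gene showed an order over age, and their intervals were among the narrower ones, −0.12 to 0.13 for H2az1 and −0.19 to 0.09 for H2az2. A second single-gene probe set of H2az1 gave a trend of −0.01 beside 0.01 for the first.

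H2B genes held the largest negative value and the largest positive value of the 33. H2bc14 (chr13:21722044-21722526) read 10.11 and 10.14 at 4 weeks, 10.03 and 10.09 at 6 weeks, 10.03 and 9.91 at 8 weeks, 9.94 and 10.03 at 10 weeks and 9.95 and 9.59 at 12 weeks. Both 12-week arrays lay below both 4-week arrays, with replicate 2 at 12 weeks far below the rest. The trend was −0.31 ± 0.09 (95% interval −0.52 to −0.11; limma adjusted p = 0.18), −0.18 without that array and −0.39 without replicate 1 at 12 weeks.

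H2bc3 (chr13:23746734-23747223) read 9.66 and 9.56 at 4 weeks, 9.55 and 9.42 at 6 weeks, 9.31 and 9.43 at 8 weeks, 9.37 and 9.36 at 10 weeks and 9.61 and 9.18 at 12 weeks. The 8- and 10-week arrays lay below the 4-week arrays, and the 12-week pair spread over nearly the whole range of the gene (trend −0.22 ± 0.11, adjusted p = 0.47; −0.13 without replicate 2 and −0.37 without replicate 1 at 12 weeks). H2bc4 (chr13:23684199-23692480), the H2B gene of strongest signal, read 12.87 and 12.89 at 4 weeks, 13.03 and 12.95 at 6 weeks, 12.88 and 12.90 at 8 weeks, 12.72 and 12.91 at 10 weeks and 12.93 and 12.77 at 12 weeks, with a trend of −0.09 ± 0.08. Its ages overlapped except that both 6-week arrays were above every other array.

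H2bc21 (chr3:96221072-96223738), also known as H2be, an H2B variant described in olfactory sensory neurons, is counted as replication-dependent by the symbol rule. It read 7.59 and 7.56 at 4 weeks, 7.84 and 7.71 at 6 weeks, 7.86 and 7.68 at 8 weeks, 7.57 and 7.81 at 10 weeks and 7.88 and 7.96 at 12 weeks. Both 12-week arrays were above every other array, and 10 weeks replicate 1 lay as low as the 4-week pair. The trend was 0.24 ± 0.10 (95% interval 0.03 to 0.45; limma adjusted p = 0.35), the only positive change among the 5 genes of unadjusted p under 0.05.

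**Figure D2:**
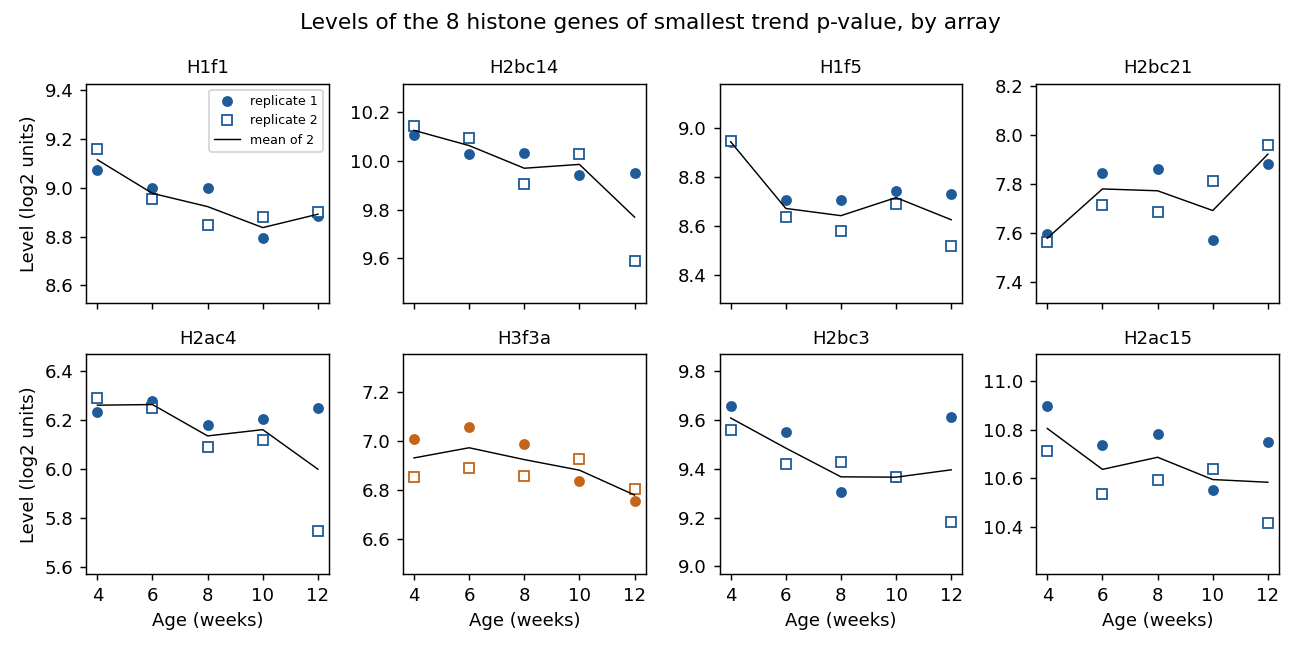
Level in log2 units (vertical axis) against age in weeks for the 8 histone genes of smallest trend p, with replicate 1 as filled circles, replicate 2 as open squares and the mean of 2 as a line; orange marks H3f3a, the replacement histone among them. The 12-week arrays of H2bc14, H2ac4 and H2bc3 lie far apart, at 9.95 and 9.59, 6.25 and 5.75, and 9.61 and 9.18.

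Few H3 genes had a probe set of their own. H3c4 (chr13:23575763-23576266), the one of strongest signal, read 7.81 and 7.84 at 4 weeks, 8.30 and 7.86 at 6 weeks, 7.61 and 7.56 at 8 weeks, 7.76 and 7.77 at 10 weeks and 7.94 and 7.77 at 12 weeks. Replicate 1 at 6 weeks stood above all others, and the trend was −0.10 ± 0.16. H3f3a (chr1:180802560-180813605), which encodes the replacement H3 variant, read 7.01 and 6.85 at 4 weeks, 7.06 and 6.89 at 6 weeks, 6.99 and 6.86 at 8 weeks, 6.84 and 6.92 at 10 weeks and 6.75 and 6.80 at 12 weeks on the single-gene probe set, whose mean of 6.90 is under the dim reference. Its 12-week arrays were below all others, and the trend was −0.16 ± 0.07 (95% interval −0.32 to 0.00; limma adjusted p = 0.44).

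H4c4 (chr13:23581568-23581969), the H4 gene of strongest signal, had the narrowest range over the arrays of the 16 genes named by rule. It read 13.43 and 13.36 at 4 weeks, 13.45 and 13.40 at 6 weeks, 13.45 and 13.42 at 8 weeks, 13.37 and 13.40 at 10 weeks and 13.44 and 13.40 at 12 weeks. Both 8-week arrays lay above both 10-week arrays, the 4- and 12-week arrays overlapped, and the trend was 0.01 ± 0.05 (95% interval −0.11 to 0.12). The other 17 histone genes had trends between −0.15 for H2bc9 and 0.11 for H4c9, and 4 of the 24 replication-dependent genes were dim (H1f3, H2ac4, H2ac8 and H3c7), as were 2 of the 6 replacement genes. No single-gene histone had a lower mean at each successive age. Only 440 of all 19752 genes did, too small a share to set against 33 genes. Among the probe sets with several genes, given below, the group means of H3, H2B and H3f3a were lower at each successive age, and those of the other groups were not.

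Other shapes over age were sought with a moderated F-test over the 5 ages. No histone gene passed it, against 33 of all genes (0.167%), and 5 of the 33 histone genes had an unadjusted p under 0.05 against 8.46% of all genes. H1f2, named after its values were seen, had the smallest p of the class (0.007, limma adjusted p = 0.40). It read 9.49 and 9.62 at 4 weeks, 9.81 and 9.71 at 6 weeks, 9.87 and 9.49 at 8 weeks, 9.06 and 9.37 at 10 weeks and 9.84 and 10.02 at 12 weeks, with both 10-week arrays below all others. Between 12 and 4 weeks alone, 0 histone genes passed against 102 of all genes (0.516%), and 5 had an unadjusted p under 0.05 against 9.57%. Both 12-week arrays lay below both 4-week arrays in 6 of 33 histone genes (18.2%) and in 22.2% of all genes, and above them in 4 histone genes and 21.6% of all genes.

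The 12-week arrays stood apart from each other within the class. Replicate 2 at 12 weeks was the lowest of the 10 arrays for 11 of 33 histone genes and 10 of the 24 replication-dependent genes, 6 of them among the 8 H2B genes, and for 10.8% of all genes. Replicate 1 at 12 weeks was the highest array for 10 histone genes, 9 of them replication-dependent, and for 5.55% of all genes. Relative to each gene's mean over the 10 arrays, the median replication-dependent gene was at 0.11 on replicate 1 and −0.06 on replicate 2, and the median H2B gene at 0.11 and −0.21. All genes had medians of −0.02 and 0.00 on these arrays. None of the 6 replacement histones was lowest on replicate 2, but a class of 6 is too small to set against 10.8%. On replicates 1 and 2 at 12 weeks, listed proliferation markers had means of 6.93 and 6.97 log2 units. Listed S-phase and licensing genes had 7.98 and 7.93. Replicate 2 was the lowest array for 4 of the 19 proliferation markers (21.1%) and 8 of the 31 S-phase genes (25.8%), above the share of all genes. What sets the pair apart in the histone genes was not tested.

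**Figure D3:**
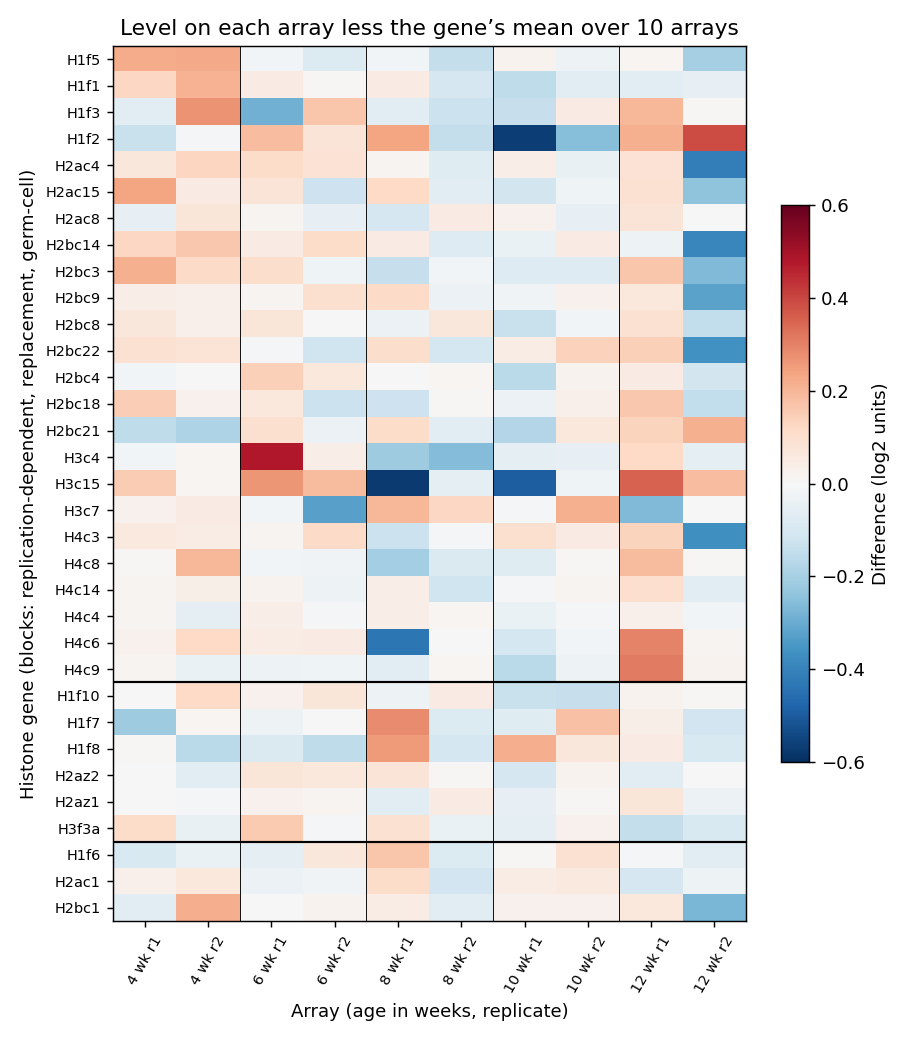
Level on each array less the gene's mean over the 10 arrays, in log2 units (colour), for the 33 histone genes in blocks of replication-dependent, replacement and germ-cell genes, with arrays ordered by age in weeks. Replicate 2 at 12 weeks (12 wk r2, last column) is blue for most H2B genes, of which 6 have their lowest value there, while replicate 1 at 12 weeks is red for many replication-dependent genes.

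Most histone genes could not be read one at a time. RefSeq lists 73 protein-coding genes under the symbol rule, of which 33 had a single-gene probe set, 37 occurred only in probe sets with several genes and 3 (H1f0, H3f3c and H3f4) in neither. Core histone genes of a family are nearly alike in their coding sequence, and probe sequences were not used here, so signal on a single-gene probe set may still hold RNA of its relatives. The 32 probe sets with several genes were fitted with all 23061 annotated probe sets, of which 167 passed the trend (0.724%). None of the 32 passed, 24 had an unadjusted p under 0.05 against 11.2% of all, and all 24 were lower at older age. None passed the F-test or the comparison of 12 with 4 weeks, as 0.147% and 0.473% of all sets did. At an unadjusted p under 0.05 there were 2 and 19 of the 32 sets. Among the 19752 genes measured one at a time the shares were 8.46% and 9.57%. The sets are not measurements of separate genes, since the sets of a group name the same genes and 2 pairs of sets hold identical values. Several of the single-gene members, such as H2bc14, H2ac15 and H3c4, are named by these sets too.

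The largest changes were in H3. There were 10 probe sets, each naming the same 12 genes (H3c1, H3c2, H3c3, H3c4, H3c6, H3c7, H3c8, H3c10, H3c11, H3c13, H3c14 and H3c15), and their mean read 12.27 and 12.17 at 4 weeks, 12.20 and 12.08 at 6 weeks, 12.11 and 11.97 at 8 weeks, 11.98 and 11.91 at 10 weeks and 12.04 and 11.69 at 12 weeks. The age means stepped from 12.22 over 12.14, 12.04 and 11.94 to 11.87, and in each of the 10 sets both 12-week arrays lay below both 4-week arrays. Over all annotated probe sets that was so for 22%. The trends ran from −0.38 to −0.34, a level 1.28-fold lower at the median, with unadjusted p of 0.0013 to 0.0028 and limma adjusted p of 0.087 to 0.14.

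Whether these 10 sets pass depended on the 12-week arrays and on the variance model. Without replicate 2 at 12 weeks their median trend was −0.26, with adjusted p of 0.26 to 0.35, and without replicate 1 it was −0.47, with 7 of the 10 passing. All 10 passed when the prior variance was allowed to follow the level (adjusted p 0.024 to 0.041) or with the replicate number as a block (0.023 to 0.038). The correlation between any pair of these sets over the arrays was at least 0.989, so they are not separate measurements.

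H2B followed with smaller values. In 7 probe sets naming 14 or 15 genes, nearly all H2B, the mean read 12.23 and 12.25 at 4 weeks, 12.24 and 12.16 at 6 weeks, 12.12 and 12.11 at 8 weeks, 12.08 and 12.09 at 10 weeks and 12.20 and 11.85 at 12 weeks. Replicates were close up to 10 weeks and apart at 12 weeks (SD 0.25). The trends ran from −0.26 to −0.18 (limma adjusted p 0.22 to 0.42), and their median was −0.13 without replicate 2 at 12 weeks. For H2A, 2 sets naming 19 or 20 genes, H2ax and H3c4 among them, had trends of −0.14 and −0.09 (adjusted p 0.36 and 0.65).

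H4 probe sets held values near 0. The 5 sets naming 11 genes had a mean of 13.32 and 13.29 at 4 weeks, 13.33 and 13.33 at 6 weeks, 13.29 and 13.31 at 8 weeks, 13.29 and 13.34 at 10 weeks and 13.37 and 13.34 at 12 weeks. The trends ran from 0.01 to 0.06, their 95% intervals together from −0.09 to 0.17, and the smallest limma adjusted p was 0.76. The interval of every H3 set, from −0.58 to −0.14 together, lay below the lowest bound of the H4 sets, although the difference between H3 and H4 was not tested. Single-gene probe sets of these families did not separate in this way. H3c4, H3c15 and H3c7 had trends of −0.10, −0.04 and −0.03, with intervals up to 0.25, 0.49 and 0.29. The 6 single-gene H4 trends ran from −0.13 to 0.11. The set naming H4c11 and H4c17 had a trend of 0.07, and that naming H2bc6 and H1f4 one of 0.01.

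Replacement H3 was read by sets that each name 1 further gene. The 4 sets of H3f3a and Gm12657 had a mean of 12.07 and 12.06 at 4 weeks, 11.97 and 11.97 at 6 weeks, 11.93 and 11.90 at 8 weeks, 11.85 and 11.93 at 10 weeks and 11.84 and 11.86 at 12 weeks. Unlike the H3 and H2B sets, the replicates stayed close at 12 weeks (SD 0.02), and the 4-week pair was above all later arrays. The trends ran from −0.23 to −0.18, with limma adjusted p of 0.099 to 0.18, and 3 of the 4 passed with the level-dependent prior variance. The 2 sets of H3f3b, the second gene of this protein, and Gm6485 had a mean of 12.29 and 12.34 at 4 weeks and 12.11 and 12.15 at 12 weeks. Their trends were −0.20 and −0.17 (limma adjusted p 0.23 and 0.31). The age means were 12.31, 12.23, 12.11, 12.14 and 12.13, so the level was no lower after 8 weeks.

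**Figure D4:**
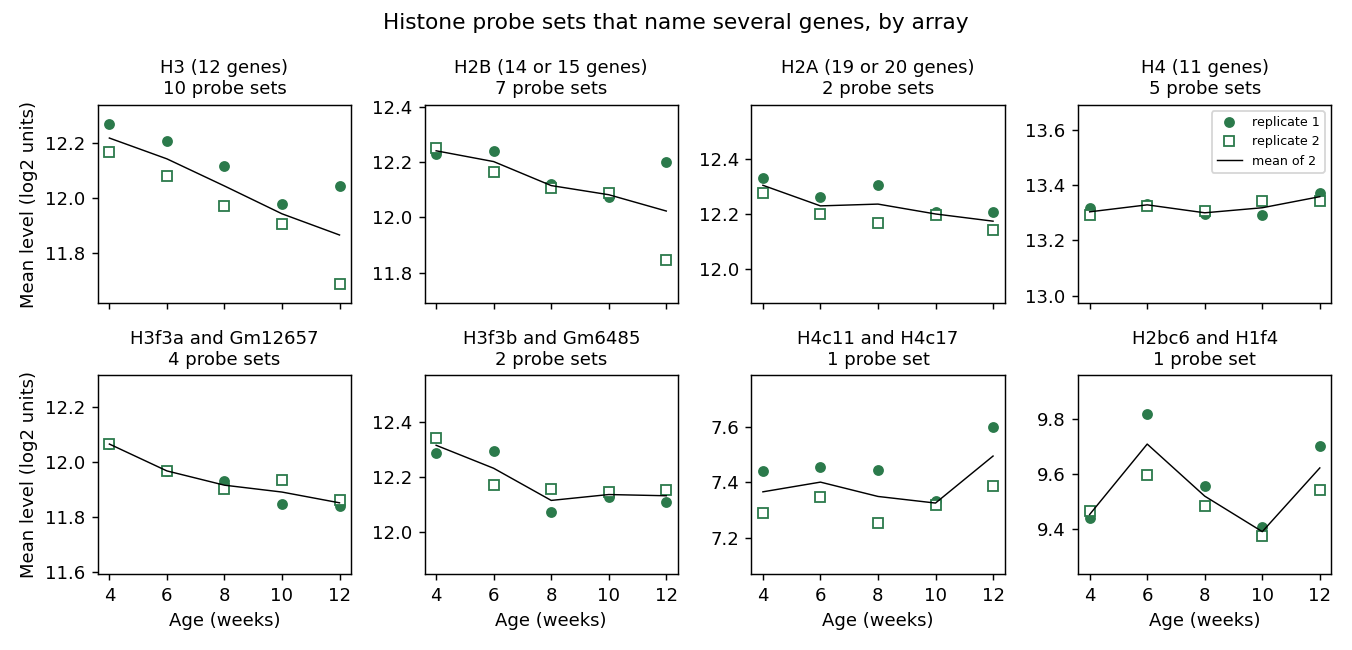
Mean level in log2 units of the probe sets that name the same several genes, against age in weeks, with replicate 1 as filled circles, replicate 2 as open squares and the mean of 2 as a line; each panel has its own vertical range. The H3 sets go from a mean of 12.22 at 4 weeks to 11.87 at 12 weeks, where the replicates are 12.04 and 11.69, while the H4 sets stay between 13.29 and 13.37.

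Genes that work with histones were read as lists. Of 31 measured genes of S phase and origin licensing, 26 had negative trends, with a median of −0.12, and 4 fell past the threshold (0.673% of all genes fell). These were Ccna2, the S-phase cyclin (−0.87 ± 0.09, limma adjusted p = 0.00073), Rrm2, a subunit of ribonucleotide reductase (−0.58 ± 0.07, 0.0034), Gins1 of the replicative helicase (−0.46 ± 0.07, 0.0081, dim at a mean of 6.34) and Mcm7 of the same helicase (−0.42 ± 0.07, 0.016). Mcm2, Mcm3 and Mcm4, the first on the list, had trends of −0.12, −0.03 and −0.04 and did not pass. Ccna2 read 8.18 and 8.06 at 4 weeks and 7.13 and 7.24 at 12 weeks. Ccna2 and Rrm2 passed with any 1 array left out, Gins1 missed the threshold without 4 weeks replicate 2 (adjusted p = 0.052), and Mcm7 missed it without either 4-week array (up to 0.11).

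Among 25 histone chaperones and nuclear carriers, the median trend was −0.04 and 1 fell. Nasp, which binds H1 and free H3 and H4 ahead of deposition, read 7.82 and 7.87 at 4 weeks, 7.60 and 7.42 at 6 weeks, 7.48 and 7.52 at 8 weeks, 7.35 and 7.37 at 10 weeks and 7.35 and 7.29 at 12 weeks. Its mean was lower at each successive age, the 12-week arrays lay far below the 4-week arrays, and the trend was −0.48 ± 0.08 (limma adjusted p = 0.020). It missed the threshold, with adjusted p up to 0.13, without either array of 4 weeks or replicate 2 of 10 or of 12 weeks. The large subunits of CAF-1, the chaperone of replication-coupled assembly, had trends of −0.07 ± 0.08 for Chaf1a and −0.20 ± 0.07 for Chaf1b and did not pass.

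None of 17 genes of histone transcription and 3′ end processing passed. Their trends ran from −0.19 to 0.14 with a median of 0.00, and 3 (17.6%) had an unadjusted p under 0.05, all with lower values at older age. Over all genes the share was 11.7%, and 7.28% in the lower direction alone. The 3 were the cleavage factor genes Cstf2 (−0.19) and Cpsf1 (−0.18) and the RNA-processing gene Srrt (−0.18), named after their values were seen. Npat, the coactivator of clustered histone genes, had 0.02 ± 0.08, Slbp, the stem-loop binding protein, 0.14 ± 0.16, and Casp8ap2, of the histone locus body, 0.05 ± 0.07. Slbp was imprecise, with 8.18 and 8.87 on the 2 arrays of 8 weeks. Of 8 measured histone genes outside the symbol rule none passed, with a median of −0.09. H2ax, the variant phosphorylated at DNA breaks, had −0.07 ± 0.10, and the macroH2A genes Macroh2a1 and Macroh2a2 had −0.16 ± 0.07 and −0.22 ± 0.13.

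Markers of dividing cells moved with age in the same arrays. All 19 measured proliferation markers had negative trends, with a median of −0.28 and a mean level of 7.33 at 4 weeks and 6.95 at 12 weeks, although 7 of the 19 were dim. Of them 4 fell past the threshold, Mki67 (−0.87), Top2a (−0.74), Tpx2 (−0.53) and Ube2c (−0.39). With 1 array left out the count ran from 0 to 8: leaving out replicate 1 of 4 weeks gave 0 and its replicate 2 gave 1, replicate 1 of 12 weeks gave 1 and its replicate 2 gave 2, and replicate 1 of 8 weeks gave 8. Of the 10 such fits, Ube2c missed the threshold in 7, Tpx2 in 5, Top2a in 3 and Mki67 in 1. Markers of some other cell types fell as well. They were 6 of 10 for neuroblasts and immature neurons (median −0.83), 2 of 5 for intermediate progenitors (−0.24), 3 of 9 for radial glia-like cells (−0.21), 5 of 8 for oligodendrocyte precursors (−0.41) and 5 of 7 for oligodendrocytes (−0.66). With 1 array left out, the first and second counts stayed at 6 and 2. Radial glia-like cells went to 0 without 4 weeks replicate 1 and to 1 without either 12-week array. Oligodendrocyte precursors went to 3 without 4 weeks replicate 1 or 12 weeks replicate 2, and oligodendrocytes to 3 without either 4-week array. No listed marker passed for astrocytes (6 measured, median −0.11), microglia (6, 0.05), endothelial cells (5, 0.24) or choroid plexus (7, −0.06). The part of these cell types in the values of the histone genes was not tested.

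**Figure D5:**
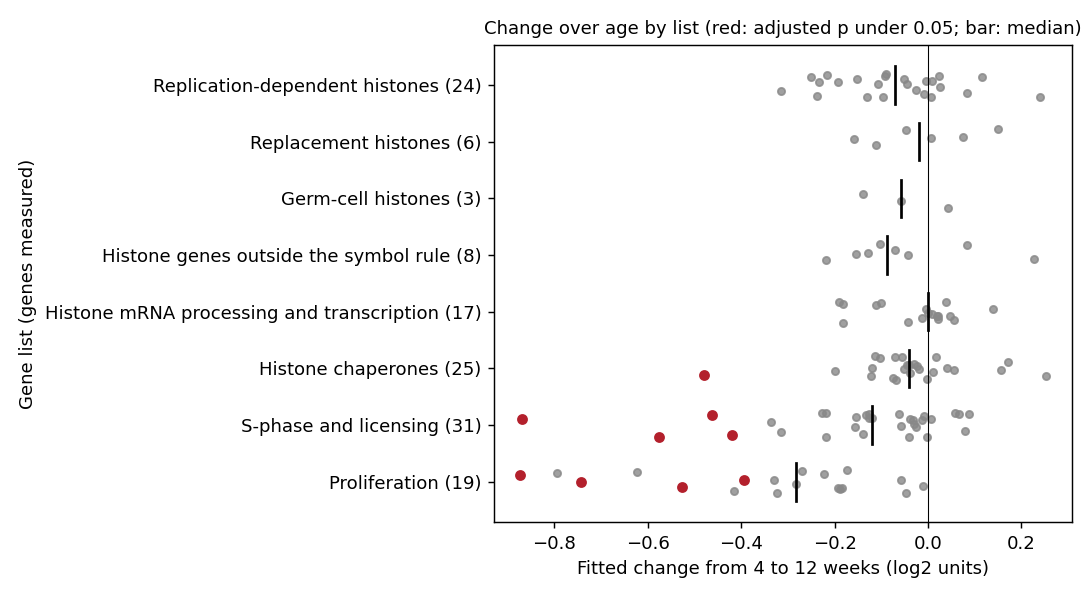
Fitted change from 4 to 12 weeks in log2 units (horizontal axis) for each measured gene of 8 lists, with red points for an adjusted p under 0.05 and a bar at each median. The 24 replication-dependent histones centre on −0.07 with no red point, the 19 proliferation markers on −0.28 with 4.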

How the data were processed

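Total RNA of mouse dentate gyrus was labelled with biotin for Affymetrix whole-transcript arrays, per the labels' protocols. The authors deposited 1 table of expression values, read here as log2 from their range and like quartiles; log base, background correction, summarization and normalization are not given in the sources used here. The build was mm10, per the submitters' processing notes. Of 25254 probe sets, GEO's platform annotation gave 1 gene for 21496, several for 1565 and none for 2193. For 938 genes with several probe sets the highest mean was kept, leaving 19752 genes without a filter on low signal. Gene spans and promoters come from RefSeq tables of GRCm38.p6.

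Models were fitted with limma 3.58.1 in R 4.3.3, two-sided, with Benjamini-Hochberg adjustment over all genes and a threshold of 0.05. They were a trend in weeks (8 residual degrees of freedom), a moderated F-test over ages and 12 against 4 weeks (5 residual degrees of freedom). Probe sets with several genes were fitted over all 23061 annotated probe sets. Errors are SEs of changes or SDs over 2 arrays, and the number of arrays limits precision. Code was tested on simulated data.

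Replacement histones were H1f0, H1f7 and above, H2az and H3f symbols, and germ-cell histones H1f6, H2ac1 and H2bc1. Named with all values were the 8 genes of smallest trend p, every replacement histone and the gene of highest mean in each family. Of each list the genes past the threshold and otherwise the first 3 measured were named. Members, lists and tests were chosen with earlier results of these data known. Alternatives covered normalization, filters on dim genes, variance models, array weights, probe set means, the replicate number as a block, log2 of age and each array or age left out.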

Additional observations from a re-analysis of the deposited data

How the results depend on the processing

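No single-gene histone passed the trend, the F-test or the comparison of 12 with 4 weeks under any alternative tried, 23 for the trend and 20 for each of the others; the smallest adjusted p of the trend ranged from 0.073 to 0.61. The median trend of the replication-dependent genes ranged from −0.17, without 12 weeks replicate 1, to −0.02, and that of the replacement genes from −0.07 to −0.00. Of 362 values for the 16 named genes, 350 kept their sign and 12 changed it, in H1f7, H2az1, H3c4 and H4c4, with no call on either side.

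Of the 32 probe sets with several genes, alternatives chosen after seeing the data called 13 with the level-dependent prior variance, 1 with array weights and 0 to 7 with 1 array left out, the 7 without 12 weeks replicate 1. With the replicate number as a block 10 passed, while 0 single-gene histones did. The labels give no meaning to the numbers. Correlations of replicate differences between ages ran from −0.34 to 0.16, with 3 of 10 above 0.1, which shows no general pairing of the arrays. In the mean of the 10 H3 sets, however, replicate 1 lay above replicate 2 at every age. Whether the numbers mark a shared condition in these sets was not tested.

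Calls over all genes moved too. The 162 genes of the trend became 35 and 54 without 4 weeks replicate 1 or 2, 91 and 104 without 12 weeks replicate 1 or 2, 102 without 10 weeks replicate 2, 279 without 8 weeks replicate 1, 51 without the 12-week and 7 without the 4-week arrays. They became 350 with the level-dependent prior variance, 417 with array weights, and 337 or 328 without dim genes. With 2 arrays at an age, small changes were not detectable, and the single-gene probe sets of H1f3, H1f8, H2ac4, H2ac8, H3c7 and H3f3a lay under the dim reference. Sets that name H2ac4, H2ac8, H3c7 or H3f3a with other genes lay above it.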
